A study of Mus musculus with 10 samples.

Results

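The genes described here encode the proteins of the mitochondrial ribosome, measured by RNA sequencing in epithelial cells from the small intestine of mice. They were taken as every row of the deposited table whose symbol starts with Mrpl or Mrps followed by a digit, with pseudogenes left out, which gave 78 of 24839 rows. The series carries the question of how a high cellulose diet bears on food allergy. It holds 10 libraries, 5 titled NCD and 5 titled HCD. HCD abbreviates high cellulose diet, as the title of the series has it, and NCD is not spelled out there. The described design has 60 days of either diet, then ovalbumin (OVA) or saline. OVA was given with an alum adjuvant by intraperitoneal injection on days 0 and 14 (50 µg OVA and 1 mg alum), and 5 oral doses of 50 mg OVA followed on alternate days. The treatment label reads untreated in all 5 NCD libraries and OVA in all 5 HCD libraries, so diet and OVA cannot be told apart in the comparison below. The sources used here do not give strain, sex or age, and the genotype label carries no allele. Nothing in the labels says that the libraries of a group came from separate animals, so p-values measure only the spread between these libraries, which may be technical.

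The mitochondrial ribosome translates the few messenger RNAs of the mitochondrial genome, which encode core subunits of the respiratory chain and of ATP synthase. Its ribosomal RNAs come from that genome, while its proteins are all encoded in the nucleus, made in the cytosol and imported. Many of these proteins have counterparts in bacterial ribosomes, and the others are found in mitochondrial ribosomes but not in bacterial ones. Absorptive epithelium of the small intestine is rich in mitochondria, which supply the energy for nutrient transport.

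Promoters are shown first. The 78 genes are scattered over 17 chromosomes, and as deposited all lay on the same side of 0 in the comparison that follows. The windows are those of RefSeq on GRCm38.p6, 250 bases before to 50 after the start of the gene, 5′ to 3′ on the strand of the gene, and 69 of the 78 genes had one. Their starts are those of RefSeq and can differ from the GENCODE gene positions given further on, and the whole window of Mrps18b lies before its GENCODE start. Capitals mark letters of NRF1, of the ETS family (CCGGAAG) or of YY1 (AAGATGGCG), on either strand. These are binding motifs of factors known for the control of nuclear genes of mitochondria. The first window is that of the gene with the largest fall, Mrps18b (chr17:35916391-35916690, minus strand), with ETS family letters on the opposite strand from position 43 relative to the start. Mrps9 (chr1:42850983-42851282, plus strand) has NRF1 letters from position -5, Mrpl22 (chr11:58171414-58171713, plus strand) has ETS family letters from position -53, and Mrpl42 (chr10:95501900-95502199, minus strand) has YY1 letters from position 27. Mrpl14 (chr17:45686099-45686398, plus strand) has NRF1 letters from position 4 and is shown because its level differed least between the groups as deposited. Every window shown holds letters of these motifs. The windows of Mrps30 and Mrps2, which had larger falls than Mrps9, hold none of them and are not shown. That of Mrpl44, which has NRF1 letters, is not shown either.
Mrps18b promoter: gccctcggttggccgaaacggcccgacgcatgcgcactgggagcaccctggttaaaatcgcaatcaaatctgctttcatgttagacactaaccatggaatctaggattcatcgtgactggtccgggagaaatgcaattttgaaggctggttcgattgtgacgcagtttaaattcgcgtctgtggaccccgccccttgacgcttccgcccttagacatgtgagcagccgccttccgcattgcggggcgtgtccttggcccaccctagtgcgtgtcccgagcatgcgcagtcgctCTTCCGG
Mrps9 promoter: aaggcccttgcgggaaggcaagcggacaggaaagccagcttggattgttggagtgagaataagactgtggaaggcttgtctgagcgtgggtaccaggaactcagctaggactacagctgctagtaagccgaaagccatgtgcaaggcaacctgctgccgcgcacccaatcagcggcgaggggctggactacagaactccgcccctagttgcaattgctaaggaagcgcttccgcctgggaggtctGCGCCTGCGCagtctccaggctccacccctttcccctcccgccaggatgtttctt
Mrpl22 promoter: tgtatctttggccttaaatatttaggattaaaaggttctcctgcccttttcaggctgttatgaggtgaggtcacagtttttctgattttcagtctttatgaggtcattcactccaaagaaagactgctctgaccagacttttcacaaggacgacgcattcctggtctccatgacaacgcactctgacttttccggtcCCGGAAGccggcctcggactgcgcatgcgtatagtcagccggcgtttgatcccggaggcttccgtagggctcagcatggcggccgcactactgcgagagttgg
Mrpl42 promoter: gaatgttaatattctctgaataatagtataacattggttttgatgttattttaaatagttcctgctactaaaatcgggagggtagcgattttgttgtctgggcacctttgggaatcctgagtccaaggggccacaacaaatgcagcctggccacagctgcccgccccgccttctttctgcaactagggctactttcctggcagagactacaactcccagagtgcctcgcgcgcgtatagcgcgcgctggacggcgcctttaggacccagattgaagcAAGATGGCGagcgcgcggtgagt
Mrpl14 promoter: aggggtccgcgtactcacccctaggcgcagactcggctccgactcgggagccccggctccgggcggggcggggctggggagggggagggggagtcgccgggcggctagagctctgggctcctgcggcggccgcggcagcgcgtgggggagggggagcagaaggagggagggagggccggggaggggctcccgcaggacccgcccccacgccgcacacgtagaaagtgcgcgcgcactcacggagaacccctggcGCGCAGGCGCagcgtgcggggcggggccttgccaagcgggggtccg

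Among the 69 windows, 25 held the ETS family letters, which is 36.2% beside 19.7% of 7732 windows of tested genes. NRF1 letters were in 13 windows (18.8%, beside 11%) and YY1 letters in 8 (11.6%, beside 3.62%). At least 1 of these motifs was present in 40 windows, or 58.0%, beside 30.8% of the windows of tested genes and 13.6% of all 32851 windows in the RefSeq table. The letters of the SP family (GGGCGG) were in 49.3% of the windows beside 65.0% for tested genes, CCAAT in 39.1% beside 38.7%, the E-box CACGTG in 7.25% beside 10.6%, and TATAAA in 5.8% beside 7.48%. The searched motifs overlapped each other in 2 of the 69 windows, both times the ETS and SP families. At least 1 of the NRF1, ETS family and YY1 motifs was in 55.6% of the 45 windows of genes that fell and in 62.5% of the other 24. Whether these motifs bear on the difference was not tested.

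Most genes of the mitochondrial ribosome fell in the HCD libraries as deposited, and fewer did after the rescaling described further on. As deposited, all 78 genes had a lower mean log2(FPKM + 1) in HCD than in NCD, where 68.1% of the 10321 tested genes did so. FPKM are mapped fragments scaled to transcript length and library, and a gene was tested where its mean over the 10 libraries was at least 1 FPKM, which all 78 reached. At an adjusted p under 0.05 (limma, Benjamini-Hochberg over all tested genes), 52 of the 78 genes fell and 0 rose, beside 19.2% of all tested genes that fell and 7.13% that rose. The median difference was -0.59 on the log2 scale, beside -0.19 for all tested genes, and the range was -1.13 to -0.06. As ratios of mean FPKM, the levels were 1.04 to 2.24-fold lower in HCD, with a median of 1.55-fold. The fall reached at least 2-fold in 6 genes.

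The separation between the groups was often complete. In 41 of the 78 genes every HCD library lay below every NCD library, beside 12.9% of all tested genes. In 0 of the 78 genes did every HCD library lie above every NCD library, beside 4.53% of all tested genes. Seen library by library, 73 to 77 of the 78 genes lay below the NCD mean of their gene in each HCD library. Within NCD, replicate 1 stood apart, with the highest value of all 10 libraries for 54 genes and a median of 41.3 FPKM over the 78 genes, beside 27.1 to 30.9 FPKM in the other NCD libraries. Replicate 2 of HCD held the lowest value for 37 genes, with a median of 16.1 FPKM beside 18.6 to 22.2 FPKM in the other HCD libraries. Without NCD replicate 1, 39 of the 78 genes fell in place of 52.

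**Figure D1:**
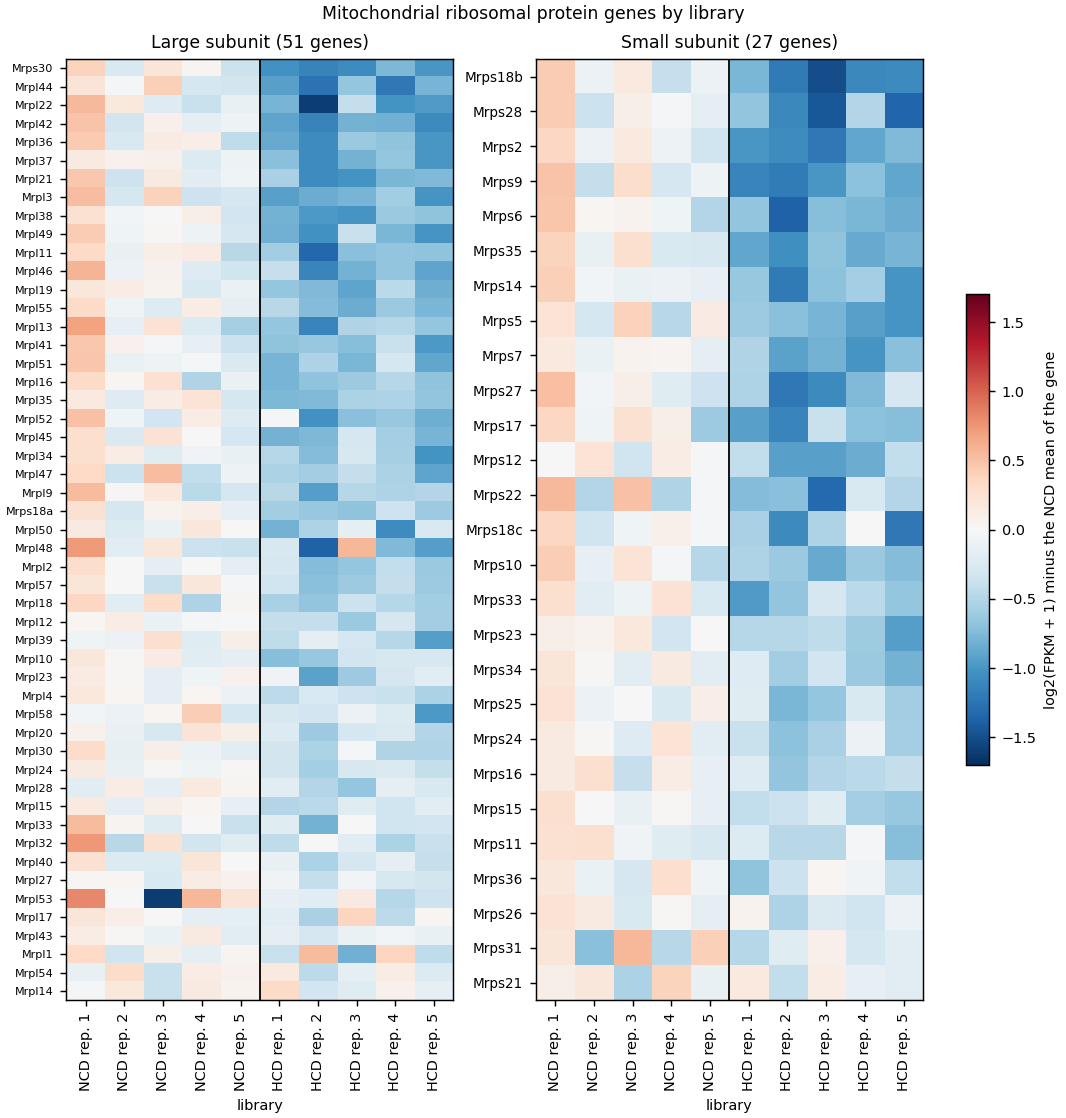
Each row is 1 of the 78 genes and each column 1 library, with the colour giving log2(FPKM + 1) minus the mean of the gene over the 5 NCD libraries (red above it, blue below it). The rows are ordered by the difference as deposited, and the HCD columns are blue in most rows of both subunits, while NCD replicate 1 is red in most.

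The depth of each library is unknown, since FPKM keep no read totals. The FPKM summed to between 539751 and 634279 per library, and 9844 to 10455 genes reached 1 FPKM. The epithelial label was matched by its markers, with means in NCD and HCD of 556 and 343 FPKM for Epcam and of 3808 and 2646 FPKM for Krt8. The 16 epithelial markers went both ways, as 7 fell and 4 rose (5 and 4 after rescaling), and their summed mean was 29847 FPKM in NCD and 40138 FPKM in HCD. Mitochondrially encoded messenger RNAs took 3.23% to 5.76% of the summed FPKM in NCD and 14.8% to 29.5% in HCD. Such abundant transcripts lower the FPKM of all other genes, so results are given as deposited and, where stated, also after rescaling all libraries to the same sum over rows outside the mitochondrial genome. That rescaling moved the median of all tested genes from -0.19 to -0.05. The samples are bulk RNA, in which fewer cells of a type and less RNA per cell cannot be told apart.

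After the rescaling, 30 of the 78 genes fell and 0 rose, beside 8.34% of all tested genes that fell and 9.07% that rose. All 30 were among the 52 that fell as deposited, and 22 lost the call. The median difference was -0.43, and 74 of the 78 genes kept a difference below 0, beside 55.2% of all tested genes. The exceptions were Mrpl14 (0.11), Mrps21 (0.08), Mrpl54 (0.06) and Mrpl43 (0.02), named here after their values were seen, of which none passed the test on either scale. In 21 genes every HCD library lay below every NCD library, beside 5.99% of all tested genes. The count of 30 fell to 15 without NCD replicate 1, to 18 without NCD replicate 3 and to 18 without HCD replicate 2. In every setting tried, the median of the mitoribosomal genes lay below the median of all tested genes, by 0.32 to 0.56 on the log2 scale over 35 settings. The 0.56 came from the setting without a filter on low values, where the median of all tested genes was -0.03. In the other settings it was at most 0.47. With a mean of at least 5 FPKM, 74 of the 78 genes were tested.

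**Figure D2:**
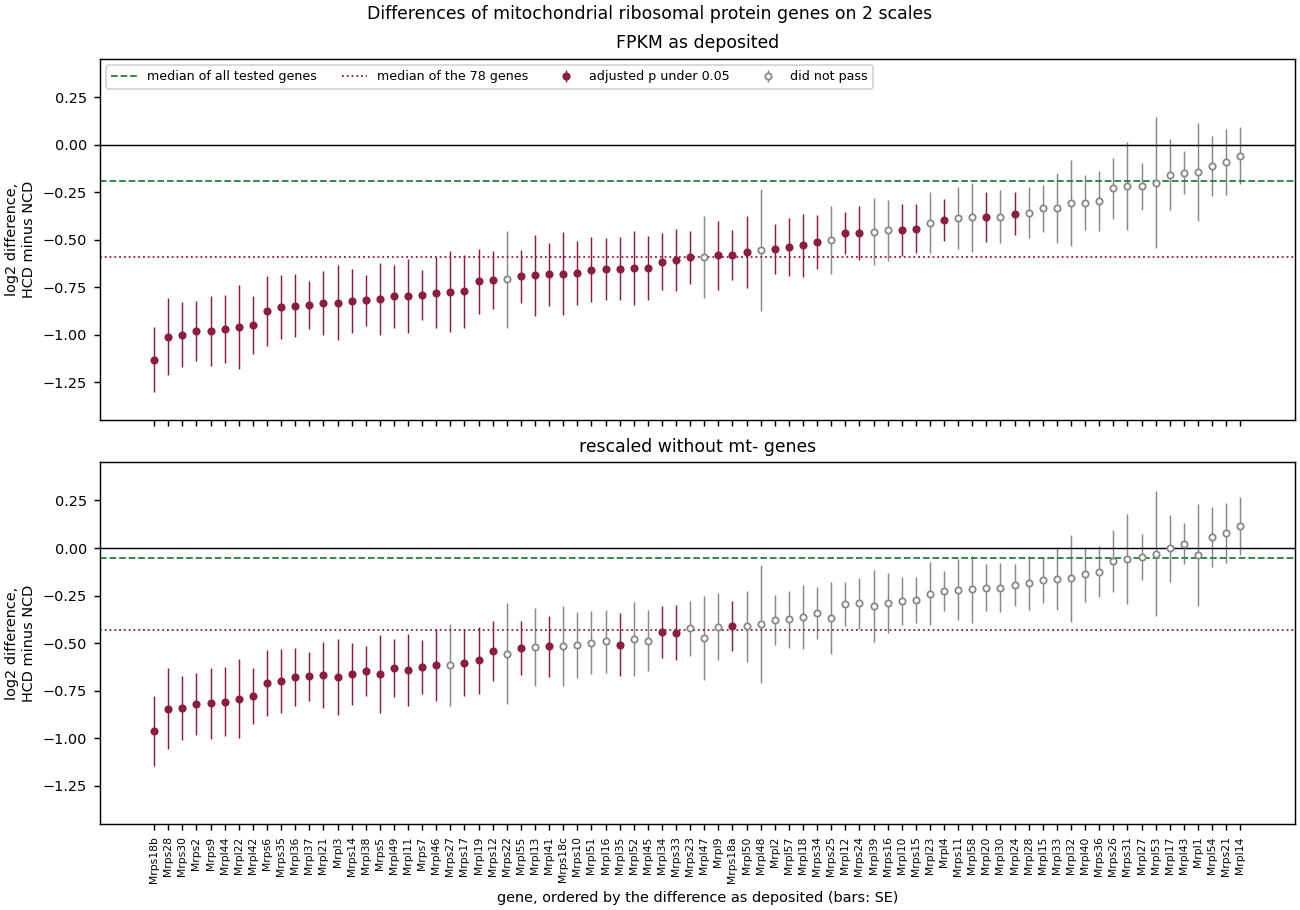
Log2 difference, HCD minus NCD, of each of the 78 genes with its standard error, for FPKM as deposited (top) and rescaled without mitochondrially encoded genes (bottom). Filled points passed the test, 52 on the first scale and 30 on the second, and 4 genes lie above 0 after the rescaling while none did before.

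Summed over the 78 genes, the levels were 3894, 3208, 3097, 3299 and 2986 FPKM in NCD replicates 1 to 5 and 2443, 2022, 2380.3, 2428 and 2145 FPKM in HCD replicates 1 to 5. The ranges did not overlap. The sum was 0.583% ± 0.0498 of all FPKM in NCD and 0.384% ± 0.0224 in HCD (SD, n = 5 each). As a share of the FPKM outside the mitochondrial genome it was 0.610% ± 0.0469 in NCD and 0.478% ± 0.0432 in HCD, again without overlap. Set against it, the summed FPKM of the mitochondrially encoded messenger RNAs were 4.82 to 10.3 times as high in NCD and 38.0 to 76.5 times as high in HCD.

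The small subunit binds the messenger RNA and decodes it, and its genes Mrps18b and Mrps28 had the largest falls. Of the 27 genes counted there, 19 fell (70.4%, beside 19.2% of all tested genes), with a median difference of -0.68. After rescaling 12 of them fell (44.4%, beside 8.34%). The 27 include Mrps36, later identified as a subunit of the 2-oxoglutarate dehydrogenase complex. Mrps18b encodes 1 of the mammalian proteins related to bacterial S18, and it lies on chromosome 17 at 35910379 to 35916389 on the minus strand (GRCm38, as all gene positions here). Its levels were 87.9, 60.0, 72.4, 48.9 and 60.3 FPKM in NCD replicates 1 to 5, and 37.3, 27.6, 22.2, 29.8 and 30.0 FPKM in HCD replicates 1 to 5. Every NCD library was above every HCD library. The mean was 2.24-fold lower in HCD, with a log2 difference of -1.13 ± 0.17 (SE, adjusted p = 6.56e-04), and of -0.96 after rescaling (adjusted p = 0.00309).

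Mrps28, a small-subunit protein of the S1 family (chromosome 3, 8802146 to 8923918), had 43.4, 24.5, 34.3, 31.5 and 28.5 FPKM in NCD and 19.7, 14.3, 11.2, 22.3 and 11.9 FPKM in HCD. The highest HCD library stayed just below the lowest NCD library as deposited, but not after rescaling. The log2 difference was -1.01 ± 0.20 as deposited (SE, adjusted p = 0.00352). Mrps2 (chromosome 2, 28468066 to 28471178), the counterpart of bacterial S2, had 16.7 to 27.6 FPKM in NCD and 8.64 to 12.4 FPKM in HCD, a log2 difference of -0.98 ± 0.16 (adjusted p = 0.00103). Mrps9 (chromosome 1, 42851233 to 42905683), the counterpart of bacterial S9, had 30.3, 15.8, 26.4, 17.3 and 20.05 FPKM in NCD and 9.24, 8.81, 10.3, 12.7 and 11.1 FPKM in HCD. In both genes the groups did not overlap, and for Mrps9 the log2 difference was -0.98 ± 0.18 (adjusted p = 0.00258). The falls of all 3 passed after rescaling as well.

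The large subunit joins amino acids into the peptide chain. Of its 51 genes, 33 fell (64.7%, beside 19.2% of all tested genes), with a median difference of -0.56. After rescaling 18 fell (35.3%, beside 8.34%). Mrps30 belongs to the large subunit in spite of its symbol, as does Mrps18a, and both were counted there. Mrps30 (chromosome 13, 118378381 to 118387252, minus strand) had 20.2, 12.5, 17.8, 15.7 and 11.6 FPKM in NCD and 6.94, 6.41, 6.74, 8.54 and 7.21 FPKM in HCD. The groups did not overlap, and the HCD libraries lay close together. The log2 difference was -0.998 ± 0.17 (SE, adjusted p = 0.00131), and the mean was 2.17-fold lower in HCD. Mrpl44, which carries a ribonuclease III fold (chromosome 1, 79776018 to 79781445), had 17.6 to 29.6 FPKM in NCD and 8.62 to 13.6 FPKM in HCD, a log2 difference of -0.97 ± 0.18 (adjusted p = 0.00231), and of -0.81 after rescaling (adjusted p = 0.00782).

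Mrpl22 is the counterpart of bacterial L22, which lines the exit tunnel of the peptide (chromosome 11, 58171661 to 58179565). It had 45.4, 35.0, 26.2, 23.3 and 28.0 FPKM in NCD and 17.3, 9.43, 22.8, 14.6 and 15.3 FPKM in HCD. HCD replicate 3 lay just under NCD replicate 4, so the gap between the groups was narrow, and after rescaling the groups overlapped. The log2 difference of Mrpl22 was -0.96 ± 0.22 as deposited (SE, adjusted p = 0.00717) and -0.79 after rescaling (adjusted p = 0.0187). That last call was lost without NCD replicate 1 (adjusted p = 0.0536). Mrpl42, found in mitochondrial ribosomes but not in bacterial ones (chromosome 10, 95480805 to 95501940, minus strand), had 47.2 to 82.6 FPKM in NCD and 26.1 to 33.4 FPKM in HCD, a log2 difference of -0.95 ± 0.15 (adjusted p = 0.00101), and of -0.78 after rescaling (adjusted p = 0.00298). The falls of these 8 genes held as deposited with each library left out in turn, with adjusted p at most 0.0210.

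Of the 5 most abundant of the 78 transcripts, 4 had a difference smaller than the median of the 78 genes, and Mrpl34 had a larger one. Mrpl12 encodes the protein of the stalk that receives translation factors, and it had the highest level in every library. Its levels were 205, 217, 183, 195 and 198 FPKM in NCD and 150.3, 150.1, 128, 163 and 132 FPKM in HCD. The groups did not overlap, and replicates varied little. The log2 difference was -0.47 ± 0.11 (SE, adjusted p = 0.00878) as deposited and -0.29 after rescaling, where it did not pass (adjusted p = 0.0988).

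Mrpl34, the counterpart of the small bacterial protein L34, had 112 to 156 FPKM in NCD and 63.6 to 107 FPKM in HCD and fell on both scales (-0.61, adjusted p = 0.00944, and -0.44, adjusted p = 0.0385). The second call was lost without any 1 of HCD replicates 2, 4 and 5 and NCD replicates 1, 2, 3 and 5. Mrpl4, the counterpart of bacterial L4, had 111 to 140.02 FPKM in NCD and 84.7 to 103 FPKM in HCD. It fell as deposited (-0.40, adjusted p = 0.0182), a call that was lost after rescaling and without NCD replicate 1 (adjusted p = 0.0508). Mrpl20 had means of 107 and 82.1 FPKM and fell as deposited (-0.38, adjusted p = 0.0429), but the call was lost without any 1 of HCD replicates 2 to 5 and NCD replicates 1, 4 and 5, with adjusted p up to 0.0968. Mrps36, later identified as a subunit of the 2-oxoglutarate dehydrogenase complex, had means of 106 and 86.5 FPKM with overlapping groups and did not pass (-0.30, adjusted p = 0.178).

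At the other end of the scale of levels, Mrpl1 had group means of 1.67 (NCD) and 1.54 FPKM (HCD). It is the counterpart of bacterial L1, the stalk where spent transfer RNA leaves. Its HCD libraries spread from 0.506 to 2.83 FPKM, both below and above all NCD libraries, and its difference did not pass (-0.14, adjusted p = 0.719). Mrpl19 fell from a mean of 3.92 to 1.99 FPKM (-0.72, adjusted p = 0.00859) and Mrpl35 from 6.90 to 3.98 FPKM (-0.65, adjusted p = 0.0118), and in both genes the groups did not overlap. After rescaling both still passed (-0.59, adjusted p = 0.0347, and -0.51, adjusted p = 0.0469), calls that were lost in 7 and in 8 of 10 fits with 1 library left out. Mrpl47 (3.33 and 1.79 FPKM, -0.59, adjusted p = 0.0564) and Mrps25 (4.45 and 2.87 FPKM, -0.50, adjusted p = 0.0544) did not pass. Each of these passed without NCD replicate 4, with adjusted p of 0.0321 and 0.0409. Mrpl47 also passed without NCD replicate 2 and Mrps25 without HCD replicate 1, with adjusted p of 0.0377 and 0.0444.

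**Figure D3:**
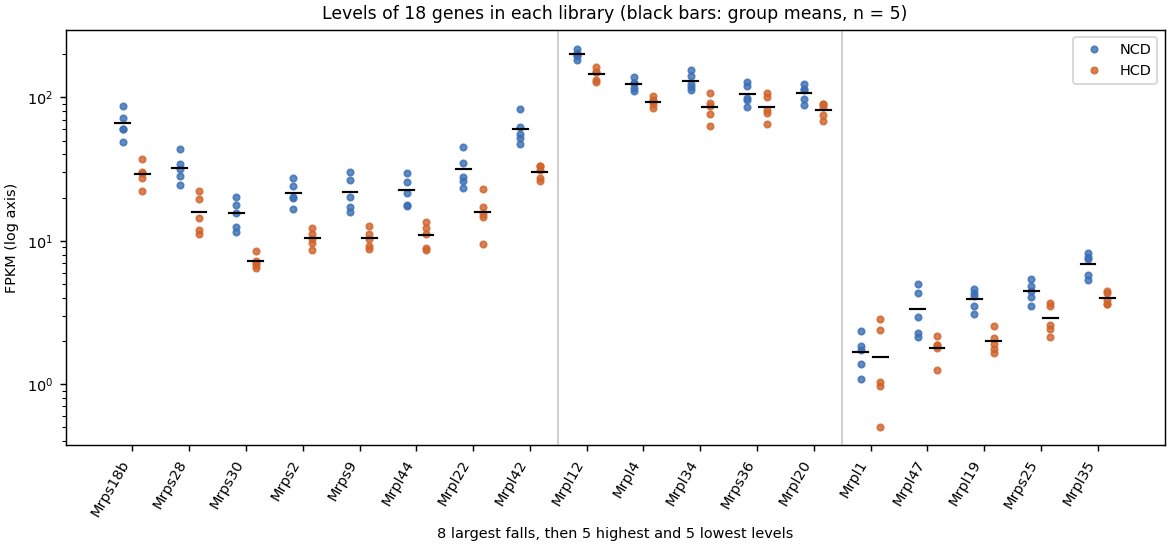
FPKM on a log axis of 18 genes in each of the 5 NCD and 5 HCD libraries, with black bars at the group means: the 8 largest falls, then the 5 highest and the 5 lowest mean levels. The groups are apart for the 8 largest falls, while Mrps36, Mrpl20, Mrpl1, Mrpl47 and Mrps25 show overlap.

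The 26 genes that did not pass came from both subunits, 18 from the large and 8 from the small. As deposited, the smallest differences were those of Mrpl14 (-0.06), the counterpart of bacterial L14 at the face where the subunits meet, and Mrps21 (-0.09). Mrpl14 had 55.1 to 81.6 FPKM in NCD and 57.0 to 89.9 FPKM in HCD, so the groups overlapped. Mrpl53 (-0.20) varied most within NCD, where replicate 3 had 14.1 FPKM and the other libraries 45.5 to 80.1 FPKM. Mrpl58, a peptidyl-tRNA hydrolase built into the large subunit, had means of 26.9 and 20.6 FPKM (-0.38, adjusted p = 0.135). These 4 genes were chosen after their values were seen.

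Genes that fell came from each class of proteins. Of 46 genes classed as having a bacterial counterpart, 32 fell (69.6%, beside 19.2% of all tested genes, median -0.59). Of 32 classed as mitochondria-specific, 20 fell (62.5%, median -0.60). The second class includes Mrps18b, although it is related to bacterial S18, and Mrps18a, while Mrps18c was counted in the first. After rescaling, 18 and 12 fell (39.1% and 37.5%, beside 8.34% of all tested genes), with a median of -0.43 in each class. The small subunit had the more negative median on both scales (-0.68 and -0.51, beside -0.56 and -0.41 for the large subunit). That order held among genes classed as having a bacterial counterpart (-0.74 and -0.57, beside -0.50 and -0.33). It was the reverse among those classed as mitochondria-specific (-0.59 and -0.42, beside -0.65 and -0.48 for the large subunit). The differences between these medians were not tested. Within each library, the summed FPKM of the small subunit, Mrps36 included, were set against those of the large subunit. The ratio was 0.409 ± 0.0105 in NCD and 0.388 ± 0.00483 in HCD (SD, n = 5 each). The lowest NCD library (0.394) lay just above the highest HCD library (0.393). The 39 genes of lower mean level had a median difference of -0.67 and the 39 of higher level one of -0.47, with 26 genes that fell in each. Replicates of the 78 genes varied by a median of 18.8% in NCD and 17% in HCD (coefficient of variation), beside 23.8% and 24.2% over all tested genes.

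Neighbours in the genome did not share the difference in all cases. A gene that starts within 1000 bases on the opposite strand, facing away, was present for 33 of the 78 genes (42.3%), beside 16.9% of 9749 tested coding genes. In 24 such pairs the partner was tested too. Of these, 1 is the pair of Mrpl46 and Mrps11, which are both mitoribosomal. Of the other 23 partners, 5 fell and 1 rose, beside 19.2% and 7.13% of all tested genes. Their median difference was -0.35, beside -0.66 for the mitoribosomal genes facing them. The log2 ratio of gene to partner was compared between the groups in all 24 pairs with an exact permutation test over libraries (two-sided, 252 splits, smallest possible p = 0.00794).

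In 4 pairs the ratio fell at an adjusted p of 0.0476 (Benjamini-Hochberg over the 24 exact permutation tests), and at an unadjusted p under 0.05 it fell in 8 pairs and rose in 1, Mrpl43 with Twnk. Ppp1r10, a regulatory subunit of a nuclear protein phosphatase, starts 45 bases from Mrps18b and had 9.51 ± 1.52 FPKM in NCD and 11.1 ± 2.45 FPKM in HCD (SD, n = 5 each), where Mrps18b fell. The log2 ratio of the pair was 2.66 in NCD and 1.33 in HCD. Pnpla7, a lysophospholipase, starts 935 bases from Mrpl41 and rose from 2.76 to 5.00 FPKM (0.68, adjusted p = 0.0155), while Mrpl41 fell (-0.68, adjusted p = 0.00921). The 2 further pairs were Mrpl21 with Ighmbp2, whose exons overlap, and Mrps34 with Eme2.

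In each of these 4 pairs the ratio was lower in every HCD library than in every NCD library, which the smallest possible p requires. The 5 partners that fell were Sars2, the mitochondrial seryl-tRNA synthetase (-0.71, facing Mrps12 at -0.71), Ptcd2, a mitochondrial RNA-binding protein (-0.83, facing Mrps27 at -0.77), Tcp1, a subunit of the cytosolic chaperonin (-0.65, facing Mrpl18 at -0.53), Ndufb5 of complex I (-0.77) and Psma2 of the proteasome (-0.60). The genes facing the last 2, Mrpl47 and Mrpl32, did not pass. After rescaling, Ptcd2 and Ndufb5 kept the call, where 8.34% of all tested genes fell. Sars2, Tcp1 and Psma2 lost it (limma, adjusted p = 0.0697, 0.119 and 0.0803). With 24 tests and the smallest possible p, fewer than 4 pairs at that p give no call. The 4 calls were lost with a pseudocount of 0.1 FPKM in place of 1 and without HCD replicate 1, 2, 4 or 5, and that of Mrps34 with Eme2 also without HCD replicate 3. Over the 12 settings run the difference in log2 ratio stayed between -1.41 and -1.23 for Mrps18b with Ppp1r10, and between -0.66 and -0.51 for Mrps34 with Eme2. The sources used here do not give whether reads were counted by strand, so reads from overlapping genes cannot be told apart. The exons of 23 of the 78 genes overlap those of another gene of the table. Of the genes named above, these include Mrps30, Mrpl44, Mrpl19, Mrpl47, Mrps25, Mrpl14, Mrpl53, Mrps34, Mrpl46, Mrps11, Mrpl21, Mrpl18 and Mrpl43. Some overlap their own partner, among them Mrpl21 with Ighmbp2, Mrpl18 with Tcp1, Mrpl47 with Ndufb5 and Mrpl43 with Twnk.

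**Figure D4:**
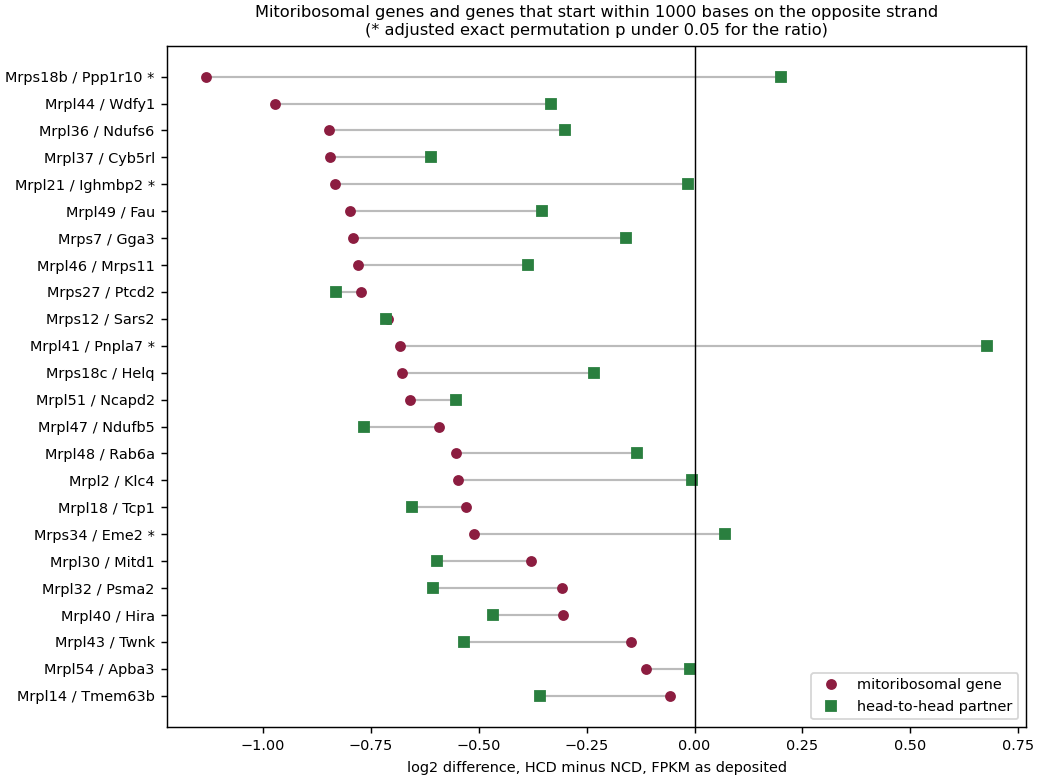
Log2 difference, HCD minus NCD, as deposited, of 24 mitoribosomal genes (circles) and of the gene that starts within 1000 bases on the opposite strand (squares). Asterisks mark the 4 pairs whose ratio passed the exact permutation test, and the widest gaps are those of Mrpl41 with Pnpla7 and Mrps18b with Ppp1r10.

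Some other genes of the mitochondrial translation pathway fell as well, to be read beside the 19.2% of all tested genes that fell as deposited and the 8.34% after rescaling. Of 5 tested mitoribosomal proteins with other names, 3 fell (median -0.53), and 0 did so after rescaling. These were Dap3, a GTP-binding protein of the small subunit (20.2 ± 6.34 to 12.1 ± 1.86 FPKM, adjusted p = 0.0290), Chchd1 of the small subunit (adjusted p = 0.0397) and Gadd45gip1 of the large subunit (adjusted p = 0.0255). Without NCD replicate 1, 0 of these 3 passed, with adjusted p of 0.0617, 0.102 and 0.0680 in that order. The call was lost in 8 of 10 such omissions for Dap3, in 6 for Chchd1 and in 5 for Gadd45gip1. Ptcd3 (-0.29) and Aurkaip1 (-0.13) did not pass. Of 24 tested genes for assembly of the ribosome and modification of its RNA, 11 fell and 0 rose (45.8%, median -0.44), and 3 fell after rescaling (12.5%). The differences of these 24 genes reached up to 0.25. Nsun4, a methyltransferase of the mitochondrial ribosomal RNA, fell from 9.39 ± 1.11 to 5.74 ± 0.438 FPKM, and the GTPases Mtg1 (-0.74) and Eral1 (-0.57) fell too. After rescaling, the calls of Nsun4 and Mtg1 were each lost in 9 of 10 fits with 1 library left out.

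Of 14 tested translation factors and activators, 8 fell and 0 rose (median -0.64). The 8 were 57.1%, beside 19.2% of all tested genes. After rescaling 4 fell (28.6%, beside 8.34%). Pdf, the deformylase that acts on the first methionine of the new chain, had 5.66, 2.59, 4.07, 3.60 and 3.22 FPKM in NCD and 0.962, 1.09, 0.501, 0.825 and 0.730 FPKM in HCD. Its groups were far apart (-1.38 ± 0.20, adjusted p = 4.86e-04). Tufm, the elongation factor that delivers transfer RNA, fell from 135 ± 8.39 to 88.5 ± 7.17 FPKM (-0.60, adjusted p = 0.00188). Oxa1l, which inserts new chains into the inner membrane, had means of 72.9 and 44.5 FPKM (-0.70, adjusted p = 0.00199). The falls of these 3 also passed after rescaling.

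Of 8 tested genes for transcription and upkeep of mitochondrial DNA, 2 fell on both scales (25%, beside 19.2% and 8.34% of all tested genes). Polrmt, the mitochondrial RNA polymerase, had 20.4, 21.9, 21.2, 20.9 and 19.5 FPKM in NCD and 10.6, 13.1, 11.1, 15.6 and 12.4 FPKM in HCD (-0.69, adjusted p = 0.00292). Top1mt, the mitochondrial topoisomerase, had means of 3.11 and 1.04 FPKM (-1.05, adjusted p = 0.00716), a call that was lost after rescaling when NCD replicate 3 was left out (adjusted p = 0.0563). Twnk, the helicase, did not pass (-0.53, adjusted p = 0.0511). Of 14 tested genes for processing and decay of mitochondrial RNA, 7 fell and 0 rose (median -0.45), and 2 fell after rescaling. They include Hsd17b10 (-0.78), a subunit of the mitochondrial RNase P, Elac2 (-0.69), the RNase Z that cuts at the other end of transfer RNAs, and Ptcd2 (-0.83). Only Elac2 of these 3 lost its call after rescaling (adjusted p = 0.0804).

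Most regulators of mitochondrial biogenesis did not pass the test. Of the 9 tested, Pprc1, a coactivator of the PGC-1 family, fell (4.48 ± 0.967 to 2.16 ± 0.889 FPKM, -0.82, adjusted p = 0.0135) and 0 rose. It passed after rescaling too, a call lost in 9 of 10 fits with 1 library left out. This 1 gene was 11.1% of the list on both scales, beside 19.2% of all tested genes that fell as deposited and 8.34% after rescaling. The list had a median of -0.15, beside -0.19 for all tested genes. Nrf1, the factor behind the NRF1 letters in the promoters, was measured at 10.2 ± 1.81 and 7.81 ± 2.12 FPKM in the respective groups (-0.36, adjusted p = 0.179), and Ppargc1b had -0.41 (adjusted p = 0.177). Messenger RNA levels of a factor do not give its activity.

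Messenger RNAs encoded by the mitochondrial genome went the other way. All 13 rose on both scales, beside 7.13% of all tested genes as deposited and 9.07% after rescaling. Their median difference was 2.17 as deposited and 2.35 after rescaling. The gene mt-Nd4, a subunit of complex I, had 494 to 833 FPKM in NCD and 1913 to 3977 FPKM in HCD (2.12, adjusted p = 7.05e-05). The gene mt-Nd5 of the same complex rose from 609 ± 46.5 to 2083 ± 669.9 FPKM (1.72, adjusted p = 1.08e-04), and mt-Nd4l likewise (2.05). Since libraries were made from poly-A selected RNA, the ribosomal RNAs of mitochondria were not analysed here.

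About as many fell as did not pass among the nuclear subunits of oxidative phosphorylation and the cytosolic ribosomal proteins. Over all tested genes, 19.2% fell as deposited and 8.34% after rescaling. Of 79 tested oxidative phosphorylation rows, 40 fell and 0 rose (50.6%, median -0.42, highest 0.92), and 18 fell after rescaling (median -0.24). Of 82 tested cytosolic ribosomal protein genes, 42 fell and 0 rose (51.2%, median -0.59), and 18 fell after rescaling (median -0.43). The median of the cytosolic list was thus the same as that of the 78 mitoribosomal genes. Every HCD library lay below every NCD library in 15 of the 82 cytosolic genes (18.3%). The share was 52.6% of the mitoribosomal genes and 12.9% of all tested genes. After rescaling it was 6.1% of the cytosolic genes, 26.9% of the mitoribosomal ones and 5.99% of all tested genes. Replicates of the cytosolic genes varied more, by a median of 22.9% in NCD and 29.0% in HCD. Whether the lists differ from each other was not tested.

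**Figure D5:**
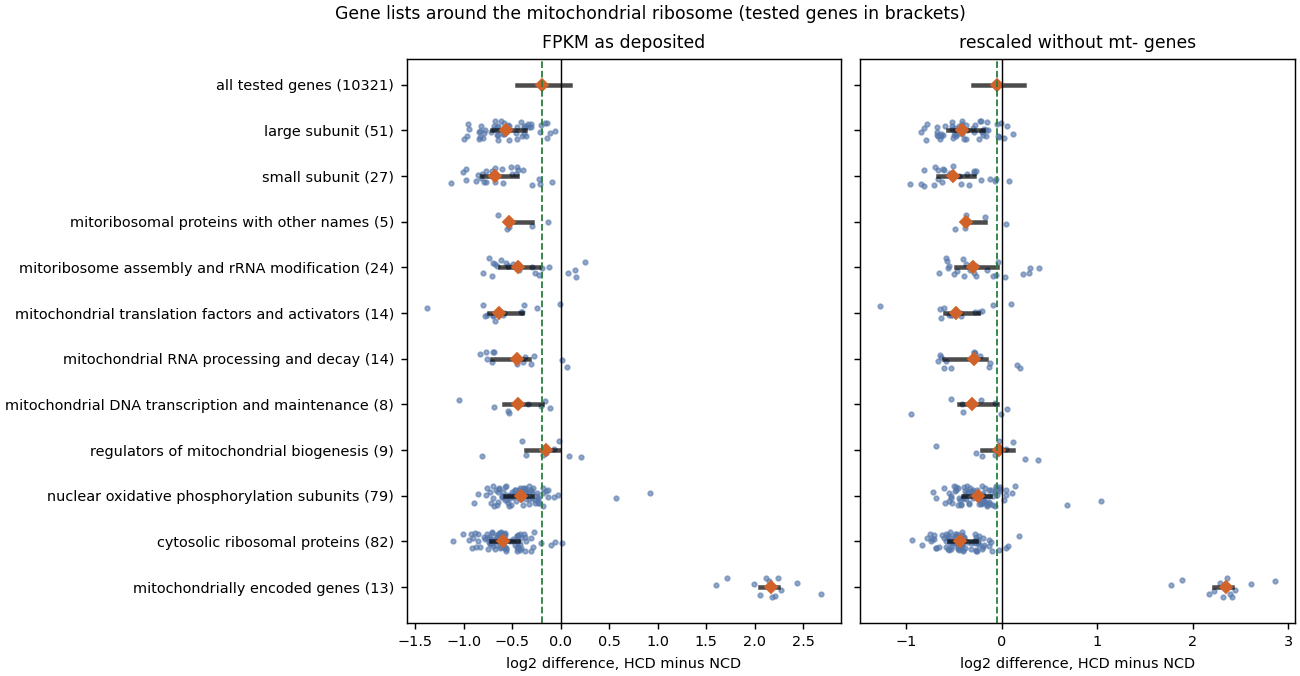
Log2 difference, HCD minus NCD, of each tested gene (points) in 11 lists, with the median (diamond) and the range between the quartiles (bar), as deposited and rescaled without mitochondrially encoded genes. The dashed line is the median of all tested genes, -0.19 and -0.05. The mitochondrially encoded genes lie above 0 on both scales, and the medians of the other lists lie below 0 on both.

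Markers of some other cell types and of dividing cells also differed between the groups. Over all tested genes, 7.13% rose and 19.2% fell as deposited. After rescaling 9.07% rose and 8.34% fell. Of 16 tested T cell and intraepithelial lymphocyte markers, 15 rose, and their summed level was 310 to 989 FPKM in NCD and 2095 to 4053 FPKM in HCD. All 4 tested red blood cell markers rose (15.1 to 41.8 and 96.6 to 391 FPKM summed). Of 11 tested myeloid markers 3 rose (40.4 to 135 and 102 to 311 FPKM), of 3 tested stromal markers 2 rose (9.51 to 12.5 and 15.4 to 25.3 FPKM), and of 7 tested B and plasma cell markers 1 rose and 1 fell (194 to 317 and 172 to 237 FPKM). Of 9 tested markers of dividing crypt cells, 4 fell (81.6 to 199 and 59.5 to 78.6 FPKM). NCD replicates 1 and 3 had the highest sums of crypt markers, 199 and 186 FPKM beside 81.6 to 103 FPKM in the other NCD libraries. The epithelial markers summed to 24969.5 to 35695 and 33643 to 48023 FPKM. After rescaling, 15 T cell, 4 red blood cell, 3 myeloid and 2 stromal markers rose. Of the B and plasma cell markers 2 rose and 1 fell, and 1 crypt marker fell (11.1%). The part of these cell types in the mitoribosomal difference was not tested.

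The column labels carry the numbers 1, 2, 3, 9 and 10 for NCD and 11, 12, 13, 19 and 20 for HCD. No batch or date is given, so an effect of the numbering between groups cannot be told apart from the group. Taken as separate runs of numbers, replicates 1 to 3 gave 32 mitoribosomal genes that fell (beside 9.75% of all tested genes) with a median of -0.66. Replicates 4 and 5, with 2 libraries a group, gave 0 that fell (beside 0.107%) with a median of -0.47, and 77 of the 78 genes lay below 0. After rescaling, the medians of these runs were -0.48 and -0.35, with 13 and 0 genes that fell.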

How the data were processed

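RNA was extracted with TRIzol, and libraries were made from poly-T selected RNA, per the labels' protocols. The authors deposited FPKM with a column for each library. HISAT2, StringTie, DESeq2, edgeR and GRCm38 are named in the submitters' processing notes, and the sources used here give no versions, annotation or strand setting. Every value column was used. In the low values, 16.8% to 22.1% lay within 0.1 of a whole multiple, where chance gives 20.0%, so reads could not be recovered, the depth is unknown and no counting interval is given.

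A linear model of log2(FPKM + 1) was run in limma 3.58.1 (R 4.3.3; lmFit and trended eBayes) on 10321 genes whose mean reached 1 FPKM, 5 NCD against 5 HCD libraries grouped by title. P-values are two-sided and were adjusted by Benjamini-Hochberg over these genes, and 0.05 was the threshold. The procedure was tested on simulated data. The second scale divides each library by its sum outside the mt- genes. The pairs of neighbours were tested by exact permutation in Python 3.11.15. Gene positions and exon overlaps come from GENCODE M21 (GRCm38), in which all 78 genes were found, and promoters from RefSeq. Of listed symbols, Ict1, Wbscr16, Peo1 and Prorp had no row; the first 3 are older symbols of Mrpl58, Rcc1l and Twnk, which had one.

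Named genes are the 8 largest falls, the 5 highest and the 5 lowest levels among the 78 genes, and up to 3 genes of each list with the smallest p. Others are said to have been chosen by value. The 78 genes, the lists and the pairs of neighbours were chosen with earlier results of these data known. Replicate numbers do not pair the libraries: same-numbered libraries correlated at -0.235 to 0.218 in their deviations from the group means. Alternatives were other pseudocounts, filters, scalings, each library left out, runs of library numbers and a replicate block.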

Additional observations from a re-analysis of the deposited data

Results flagged for a closer look

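Of 98 groups of 5 libraries checked for a library far from the others, 2 held one, and chance gives about 1 in 20. Dap3, a GTP-binding protein of the small mitoribosomal subunit, had 15.3 FPKM in HCD replicate 1, beside 10.8 to 11.6 FPKM in the other HCD libraries. The summed markers of dividing crypt cells were 59.5 FPKM in HCD replicate 3, beside 73.6 to 78.6 FPKM in the other HCD libraries.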

How the results depend on the processing

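In all 35 alternatives 0 mitoribosomal genes rose, at least 69 of those tested had a difference below 0, and their median stayed between -0.66 and -0.35. The count that fell depended on the scaling, on the filter and on the number of libraries. Against 52 of 78 as deposited (19.2% of 10321 tested genes) it was 62 with each library rescaled to one total (2417 of all tested genes). When the filter was raised to 5 FPKM, the count was 56 of 74, beside 1892 of 6452 tested genes (29.3%). Without a filter on low values it was 45 of 78, beside 1513 of 18440 (8.2%). It was 34 with the medians of tested genes set equal (all tested genes that fell: 1053 in place of 1982), 24 with quantile normalization (885), 30 rescaled without mt- genes (861), 32 with replicates 1 to 3 (1006) and 0 with replicates 4 and 5 (11). Rescaled, it was 13 with replicates 1 to 3 (329) and 0 with replicates 4 and 5 (15), where the median of the 78 genes was -0.35. With each library left out it ranged from 39 to 54 (all tested genes 1319 to 2036), with medians from -0.65 to -0.52. Rescaled without HCD replicates 1 to 5 in turn it was 28, 18, 22, 24 and 22 (787, 661, 593, 635 and 690), and without NCD replicates 1 to 5 in turn 15, 27, 18, 28 and 27 (445, 846, 435, 936 and 667), with medians from -0.48 to -0.38. All tested genes that rose numbered 736 as deposited, 433 with a mean of at least 5 FPKM, and 414 and 45 with replicates 1 to 3 and 4 and 5 (473 and 122 rescaled). With each library left out they numbered 551 to 787, and 660 to 932 rescaled.

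Since the numbers do not pair the libraries, the replicate block is given here alone: 49 genes fell (1620 of all tested genes), and 25 when rescaled (669). Of 5 NCD libraries, 1 correlated best with its own number. For the pairs of neighbours, alternatives were chosen after seeing the data: 0 pairs passed with a pseudocount of 0.1, and 0 to 4 with each library left out. Mrpl1, which did not pass, changed sign to 0.018 with replicates 4 and 5 (0.10 rescaled), and with each library left out it ranged from -0.31 to 0.022, above 0 without HCD replicate 3. When rescaled it was 0.010, 0.15 and 0.035 without HCD replicates 1, 3 and 5, and 0.034 without NCD replicate 1. Of 1356 values of 39 named genes, 1047 kept direction and call, 289 lost the call and 13 gained it. The causes were not tested. Depth is unknown, and 5 libraries a group limit the precision.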
